A study of Danio rerio with 2 samples.

Results

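Smooth muscle cells wrap the outflow tract of the zebrafish heart, the vessel segment called the bulbus arteriosus, and give it a contractile and elastic wall. Their contraction runs on a smooth muscle myosin that is switched on by a myosin light chain kinase and pulls on alpha actin filaments bound by transgelin and calponin. The elastic recoil of the wall comes from elastin, a secreted protein that is cross-linked on a scaffold of microfibrils, where latent TGF-beta binding proteins also hold the growth factor TGF-beta. In zebrafish the progenitors of the outflow tract, the second heart field, express ltbp3, and elnb is known from the bulbus arteriosus.

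The genes described here are 9 symbols of these machineries, myh11a, tagln, acta2, cnn1a, cnn1b, mylka, elna, elnb and ltbp3, chosen by name from the authors' deposited comparison of Ensembl genes. All 9 were found, and mylka stood for 2 identifiers, so 10 identifiers of the 26126 listed were followed. The RNA came from hearts of kctd10 -/- mutants and of wild-type animals, both of the AB background, at 48 hours post fertilization, with 1 library per genotype. The sources used here give neither the number of hearts in each library nor the nature of the mutant allele. The counts that named a gene summed to 139099775 in the mutant-labelled library and 150001992 in the wild-type-labelled library.

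With 1 library per genotype there was no replicate check, no test was run and no p-value is given, so each ratio compares 2 libraries and not the genotypes. Intervals are 95% intervals and cover counting error alone, with each read treated as an independent draw. Reads amplified without molecular identifiers cannot be taken as independent molecules, so these intervals may be too narrow. The transcript of the mutated gene, kctd10, had 19942 counts in the mutant-labelled library and 8226 in the wild-type-labelled library, a ratio of 2.57 (2.5 to 2.64). Counts over a gene need not fall with a sequence mutation, and since this direction is opposite to a loss, the libraries are named by their labels. In whole-organ RNA, more cells of a type and more RNA per cell cannot be told apart.

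Genes whose counts summed to 10 or more were called higher if the entire interval exceeded 1.5-fold, and lower if the interval stayed under the inverse of that limit. All 10 identifiers reached 10 counts. By this rule myh11a, tagln, elna and acta2 were higher in the mutant-labelled library, which makes 4 of 10, and 0 were lower, though acta2 turned to 0.978 when the libraries were scaled to heart muscle genes. Over the 24009 genes measured, 6.03% were called higher and 6.66% lower. The set was chosen with earlier results of these data known, so its contrast with all genes is a description only. At a limit of 2-fold, myh11a, tagln and elna were higher and 0 lower, against 2.64% and 2.82% of all genes. The median log2 ratio was 0.43 over the 10 identifiers and 0.00084 over all measured genes. The intervals of ltbp3 and cnn1b lay above 1 without reaching the rule, that of 1 mylka identifier lay below 1, and those of cnn1a, elnb and the other mylka identifier held 1. Scaling to heart muscle genes also left elna without a call. It gave 2 higher, myh11a and tagln, and 2 lower, elnb and the mylka identifier below 1. Over all measured genes that scaling called 1.68% higher and 42.5% lower.

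**Figure D1:**
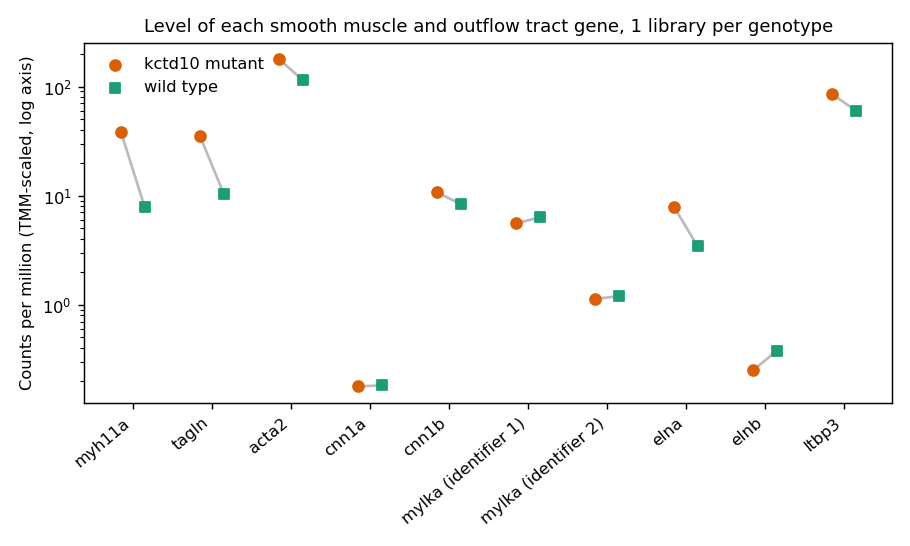
Level of each gene in TMM-scaled CPM, counts relative to library size (log axis), in the mutant-labelled library (circles, left of each pair) and the wild-type-labelled library (squares). There is 1 library per genotype and no error bar, and levels of different genes are not comparable because transcript length was not accounted for. The steepest line belongs to myh11a, at 38.3 CPM in the mutant-labelled and 7.86 in the wild-type-labelled library.

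The motor gene stood farthest from no change. myh11a (ENSDARG00000009782) encodes a smooth muscle myosin heavy chain and had 5378 counts, or 38.3 when scaled to library size (TMM-scaled CPM), in the mutant-labelled library. In the wild-type-labelled library it had 1169 counts, or 7.86 CPM. The ratio was 4.87 (4.57 to 5.2), and 187 genes, myh11a included, had a ratio at or above it, 0.779% of those measured. Its closest relative, myh11b, was not called: it had 436 and 408 counts in the mutant-labelled and wild-type-labelled libraries, a ratio of 1.13 (0.987 to 1.3). The number of myh11a counts per myh11b count was thus 12.3 in the mutant-labelled library and 2.87 in the wild-type-labelled library, a quotient of 4.31 (3.71 to 5.0) that does not depend on how the libraries are scaled. The non-muscle myosin genes myh9a, myh10 and myh14 had ratios of 0.740, 0.854 and 0.759, all below 1 and none past the rule for lower genes.

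The gene of an actin-binding partner of the contractile filaments came next. tagln (ENSDARG00000045408), transgelin, had 4928 counts in the mutant-labelled library, against 1548 in the wild-type-labelled library. These are 35.1 CPM in the mutant-labelled and 10.4 in the wild-type-labelled library, a ratio of 3.37 (3.18 to 3.57), with 437 genes (1.82%) at or above it. Within its family tagln had the highest ratio. tagln2, the widely expressed transgelin, had a ratio of 1.18 (1.15 to 1.2), and the number of tagln counts per tagln2 count was 0.233 in the mutant-labelled library and 0.0811 in the wild-type-labelled library. The paralogues known from neurons pointed the other way: tagln3a had 159 and 421 counts in the mutant-labelled and wild-type-labelled libraries and was called lower, with a ratio of 0.400 (0.331 to 0.481), while tagln3b had a ratio of 0.785.

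The smooth muscle actin gene passed the rule narrowly. acta2 (ENSDARG00000045180), the alpha actin of smooth muscle, had 25060 counts in the mutant-labelled library and 17035 in the wild-type-labelled library, or 179 and 115 CPM. Its ratio was 1.56 (1.53 to 1.59), with the lower bound just above 1.5, and 2637 genes (10.98%) lay at or above it. It is the most counted of the 10 identifiers, so its interval is the narrowest while its ratio is the smallest of the 4 called higher. Alpha actins are nearly identical in sequence, and the sources used here do not say how reads that match several of them were counted, so the acta2 value is uncertain.

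Of the other actin genes, 2 were called, both lower. The cardiac actin genes actc1a and ACTC1 (3 of 3) had ratios of 1.27 (1.26 to 1.28) and 1.28 (1.27 to 1.3) and were not called. actc1b, which zebrafish express in skeletal muscle, had 35281 counts in the mutant-labelled library, against 131060 in the wild-type-labelled library, and was called lower (ratio 0.285), as was the skeletal actin gene acta1a (0.525). The other skeletal gene, acta1b, had a ratio of 0.862, and the cytoplasmic actin genes actb1 and actb2 had 0.789 and 0.837, and none of these 3 was called. Skeletal muscle markers, which include acta1a, acta1b and actc1b, were lower in 23 of 27 cases (85.2%), against 6.66% of all measured genes. Their summed level was 1946 CPM in the mutant-labelled library and 5442 in the wild-type-labelled library, and none was at 0. The part of skeletal muscle RNA in the actin values was not tested.

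Neither calponin gene of the set was called. cnn1b (ENSDARG00000093937) encodes a calponin of the smooth muscle type, which binds actin and dampens the myosin motor. It had 1499 counts in the mutant-labelled library and 1245 in the wild-type-labelled library, a ratio of 1.28 (1.18 to 1.38). cnn1a (ENSDARG00000017193), its duplicate, was near the limit of use, with 25 counts in the mutant-labelled library and 27 in the wild-type-labelled library. Its ratio of 0.981 had an interval from 0.546 to 1.76, and at its total of 52 counts no ratio below 2.88 could have been called higher. The number of cnn1b counts per cnn1a count was 60.0 in the mutant-labelled library and 46.1 in the wild-type-labelled library, and the interval of the quotient, 0.722 to 2.35, held 1. Of the other calponin genes, cnn3a was called higher, with 33090 and 21880 counts in the mutant-labelled and wild-type-labelled libraries and a ratio of 1.60 (1.57 to 1.63). cnn2 had a ratio of 1.23 and cnn3b of 0.996.

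The kinase that activates smooth muscle myosin was not called. mylka, myosin light chain kinase, had 781 counts in the mutant-labelled library and 936 in the wild-type-labelled library under ENSDARG00000034801, a ratio of 0.884 (0.803 to 0.973). Under ENSDARG00000090738, which the authors' table also names mylka, it had 158 and 178 counts in the mutant-labelled and wild-type-labelled libraries, a ratio of 0.940 (0.754 to 1.17). Both together gave 939 counts in the mutant-labelled library and 1114 in the wild-type-labelled library, with a ratio of 0.893 (0.818 to 0.975). A pair of identifiers of 1 symbol may divide the reads of 1 gene, and the number of counts of the second per count of the first was 0.202 in the mutant-labelled library and 0.190 in the wild-type-labelled library. Among the relatives, the cardiac kinase gene mylk3 was called higher (1.60, 1.55 to 1.66), with 9110 and 6020 counts in the mutant-labelled and wild-type-labelled libraries. mylkb, the duplicate of mylka, had a ratio of 1.24 (1.06 to 1.45), mylk2 of 1.40, mylk4b of 0.706 and a gene that a current name table calls mylk5 of 1.15.

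**Figure D2:**
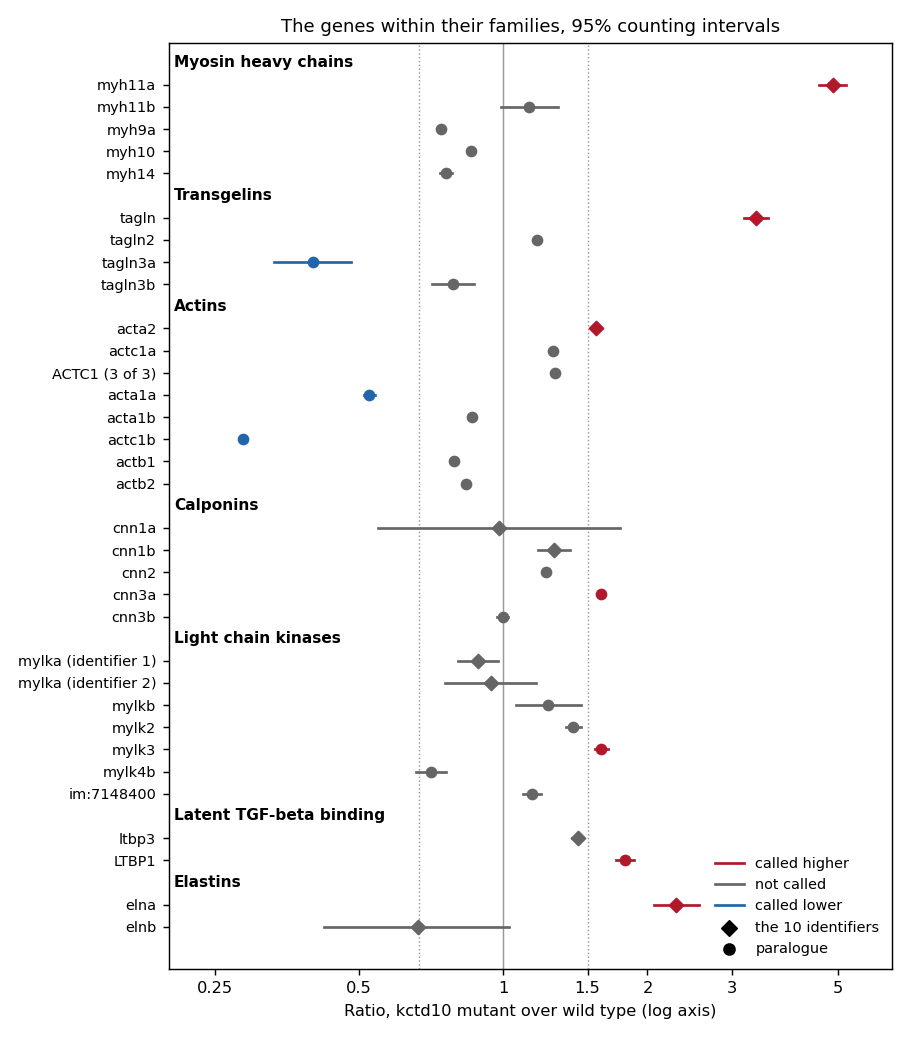
Ratio of the mutant-labelled over the wild-type-labelled library (log axis) with 95% counting intervals for the 10 identifiers (diamonds) and their paralogues (circles), by family. Solid and dotted vertical lines mark 1, 1.5-fold and its inverse. myh11a, tagln and acta2 each have the highest ratio in their family, while cnn3a, mylk3 and LTBP1 lie above the calponin, kinase and binding protein genes of the set.

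Of the 2 elastin genes only elna passed the rule. elna (ENSDARG00000069994) had 1104 counts in the mutant-labelled library and 509 in the wild-type-labelled library, or 7.87 and 3.42 CPM. Its ratio was 2.3 (2.07 to 2.56), with 1010 genes (4.21%) at or above it. elnb (ENSDARG00000069017) was scarce, with 35 counts in the mutant-labelled library and 56 in the wild-type-labelled library. Its ratio was 0.662 (0.421 to 1.03), an interval that held 1. At its total of 91 counts a ratio had to be 0.401 or less to be called lower, so a smaller difference could not be called at this depth. The number of elna counts per elnb count was 31.5 in the mutant-labelled library and 9.09 in the wild-type-labelled library. The quotient of 3.47 had an exact interval of 2.2 to 5.53, which excludes 1 and is free of the scaling of the libraries.

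The TGF-beta binding protein gene was well counted and fell just short of the rule. ltbp3 (ENSDARG00000035682) had 12019 counts in the mutant-labelled library and 8906 in the wild-type-labelled library, 85.6 and 59.9 CPM. Its ratio of 1.43 (1.39 to 1.47) lay wholly below 1.5, and 3406 genes (14.2%) were at or above it. LTBP1, its paralogue, was called higher, with 6005 counts in the mutant-labelled library, 3543 in the wild-type-labelled library and a ratio of 1.80 (1.72 to 1.87). The number of ltbp3 counts per LTBP1 count was accordingly 2.0 in the mutant-labelled library and 2.51 in the wild-type-labelled library, a quotient of 0.796 (0.758 to 0.837).

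**Figure D3:**
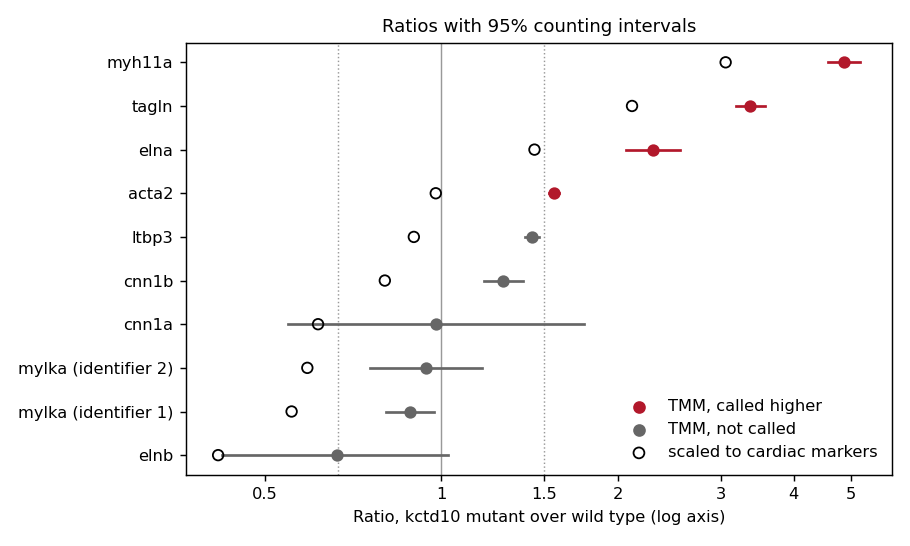
Ratio of the mutant-labelled over the wild-type-labelled library (log axis) for the 10 identifiers in order of size, with 95% counting intervals, as TMM-scaled values (filled) and scaled to the cardiac muscle markers (open). Dotted lines mark 1.5-fold and its inverse. myh11a and tagln stay above 1.5-fold by both, at 4.87 and 3.37 filled and at 3.06 and 2.12 open.

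In the order of ratios, neighbours among the 6 highest were separable by counting error, and neighbours from cnn1b down were not. Only neighbours in this order were compared, so each factor is above 1 by construction. Whether its interval held 1 also depends on the number of counts, and cnn1a, next below cnn1b, had a total of 52. The interval of cnn1b, 1.18 to 1.38, lay above that of the more counted mylka identifier, 0.803 to 0.973. myh11a exceeded tagln 1.45-fold (1.33 to 1.57), tagln exceeded elna 1.47-fold (1.3 to 1.65), and elna exceeded acta2 1.47-fold (1.33 to 1.64). acta2 exceeded ltbp3 by a factor of 1.09 (1.05 to 1.13) and ltbp3 exceeded cnn1b by 1.12 (1.03 to 1.21). Below cnn1b, the intervals for the neighbours cnn1b and cnn1a, cnn1a and the scarcer mylka identifier, both mylka identifiers, and the more counted mylka identifier and elnb all held 1. The largest factor among those, between mylka and elnb, was 1.34 (0.850 to 2.12).

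**Figure D4:**
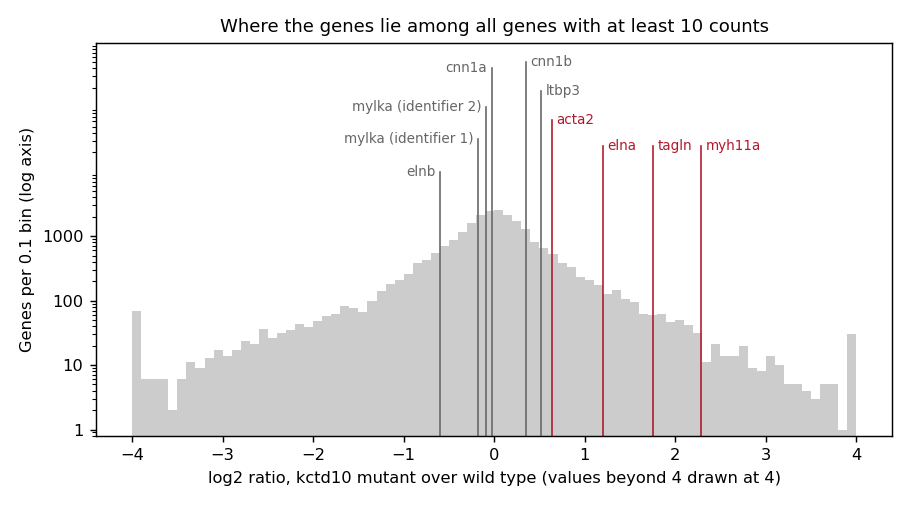
Number of genes per bin of log2 ratio of the mutant-labelled over the wild-type-labelled library (both axes as labelled, log count axis) for all 24009 genes with at least 10 counts, with lines at the 10 identifiers. elnb lies at −0.59, cnn1a and both mylka identifiers lie near 0, and elna, tagln and myh11a lie in the upper tail at 1.2, 1.75 and 2.28.

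Most but not all heart muscle genes of the marker list were also higher in the mutant-labelled library. Of 10 measured cardiac muscle markers 6 were called higher (60%) and 0 lower, against 6.03% and 6.66% of all measured genes. The markers had a median log2 ratio of 0.67 and summed levels of 11948 and 7398 CPM in the mutant-labelled and wild-type-labelled libraries. The most counted, vmhc, a ventricular myosin heavy chain gene, had a ratio of 1.49 (1.484 to 1.497) and was not called, nor were myl7 (1.37) and actn2 (1.301). nppa, a natriuretic peptide gene, myh6, an atrial myosin heavy chain gene, and tnnc1a, a troponin C gene, had the highest ratios, at 2.55, 2.26 and 1.78. The titin gene ttna lay on the other side, with 38375 counts in the mutant-labelled library, 45790 in the wild-type-labelled library and a ratio of 0.888 (0.876 to 0.900). MYL4 had 0 counts in the mutant-labelled library and 1 in the wild-type-labelled library. In mammals, embryonic heart muscle itself expresses acta2 and tagln. The number of acta2 counts per count of tnnt2a, the cardiac troponin T gene, was 0.199 in the mutant-labelled library and 0.203 in the wild-type-labelled library, a quotient of 0.982 (0.961 to 1.0). The quotient was larger per count of vmhc, at 1.05 (1.02 to 1.07), and per count of actc1a, at 1.23 (1.2 to 1.25), and both of these intervals lay above 1. Per count of myl7, a cardiac myosin light chain gene, the quotient was 1.04 (1.01 to 1.07) for ltbp3. For acta2 it was 1.13 (1.11 to 1.16) and for elna 1.67 (1.51 to 1.86). For tagln it was 2.45 (2.32 to 2.60) and for myh11a 3.55 (3.33 to 3.78). The other identifiers of the set were not set against myl7. Their ratios, from 0.662 for elnb to 1.28 for cnn1b, all lay below the 1.37 of myl7. The log2 ratio of myl7, 0.46, was itself below the marker median of 0.67. tnnt2a, myl7, actn2, ttna and MYL4 were named after their values were seen.

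When both libraries were scaled to the median of the cardiac markers, 2 of the 4 calls were kept. That scaling lowers every log2 ratio by 0.67, and with it the called genes split into 3.81% higher and the rest lower, against 47.5% higher under TMM. Over all measured genes, it called 1.68% higher and 42.5% lower. By it myh11a (3.06, 2.87 to 3.26) and tagln (2.12, 2.0 to 2.24) were called higher, and the more counted mylka identifier (0.555) and elnb (0.416, 0.264 to 0.645) were called lower. elna had a ratio of 1.44 and was not called, and acta2, ltbp3 and cnn1b lay below 1, at 0.978, 0.897 and 0.801. The order among genes does not depend on the scaling. The part of heart muscle content in these ratios was not tested.

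Other contractile genes of smooth muscle went both ways. Of 39 measured, 9 were called higher (23.1%) and 5 lower (12.8%), against 6.03% and 6.66% of all measured genes. The median log2 ratio was 0.21. Under the cardiac scaling 1 gene of the list was called higher and 15 lower, where 1.68% and 42.5% of all measured genes were. smtnl, a smoothelin-like gene, had 14619 and 4293 counts in the mutant-labelled and wild-type-labelled libraries, a ratio of 3.61 (3.49 to 3.73), and smtnl1 had 2.19 (2.10 to 2.28). myl9b, a regulatory light chain that the kinase phosphorylates, had 48463 counts in the mutant-labelled library, 26457 in the wild-type-labelled library and a ratio of 1.94 (1.91 to 1.97). The most counted gene, tpm4a, a tropomyosin that zebrafish heart muscle uses, was called higher at 1.57 (1.56 to 1.58). Of the 5 lower genes, the 3 farthest from no change were fhl2b (0.187, 0.144 to 0.239), synpo2b (0.307, 0.230 to 0.405) and SYNPO2L (2 of 2) (0.439, 0.378 to 0.510). The others were cald1 (0.494) and gucy1a3 (0.512). cald1 had 83 and 178 counts in the mutant-labelled and wild-type-labelled libraries. Its relative cald1l was called higher (1.58) on 7331 and 4911. SYNPO2L (2 of 2) had 251 and 605 counts in the same order. Its relative synpo2lb was called higher (1.79) on 51842 and 30730. cald1, gucy1a3, cald1l and synpo2lb were named after their values were seen. Several of these genes are shared with striated muscle, whose cardiac and skeletal markers differed in opposite directions between these libraries. The part of striated muscle RNA in these values was not tested.

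Of 46 measured regulators of smooth muscle fate, 3 were called higher and 2 lower, with a median of −0.0064. These are shares of 6.52% and 4.35%, near the 6.03% and 6.66% of all measured genes. The serum response factor gene srfa, which drives contractile genes, had a ratio of 0.936 and its partner MYOCD, myocardin, 1.28. tgfb1b, a TGF-beta ligand, was higher with 872 and 330 counts in the mutant-labelled and wild-type-labelled libraries and a ratio of 2.80 (2.46 to 3.19), whereas its duplicate tgfb1a had 0.871. pdgfb, a ligand that recruits mural cells, had a ratio of 2.0 (1.71 to 2.34) and the endothelin receptor gene ednraa 1.69 (1.64 to 1.75). klf4a, whose mammalian counterpart represses the contractile state, was lower, with 918 counts in the mutant-labelled library, 9352 in the wild-type-labelled library and a ratio of 0.104 (0.0971 to 0.111). Whether the klf4a level bears on the contractile genes was not tested, nor was the tissue its counts came from. tgfbi, a matrix gene induced by TGF-beta, was lower at 0.615, and the receptor gene notch3, the most counted, had 1.01. srfa, MYOCD and tgfb1a were named after their values were seen.

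The elastic fibre genes around elastin divided between higher and lower. Of 30 measured, 6 were called higher (20%) and 7 lower (23.3%), with a median of −0.089. Over all measured genes these shares were 6.03% and 6.66%. fbn1, a fibrillin of the microfibril scaffold, had 686 counts in the mutant-labelled library, 133 in the wild-type-labelled library and a ratio of 5.46 (4.53 to 6.63). fbn2b, the most counted fibrillin gene, had 32188 counts in the mutant-labelled library, 31247 in the wild-type-labelled library and a ratio of 1.09. mfap4 and mfap5, of microfibril-associated proteins, were higher at 3.60 (3.22 to 4.04) and 2.57 (2.29 to 2.89).

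mfap4 is also used in zebrafish as a macrophage marker. In a myeloid marker list added after the elastic fibre values were seen, 12 of 14 genes were called higher (85.7%) and 0 lower. Over all measured genes these shares were 6.03% and 6.66%. None of the list was at 0, and its summed level was 318 CPM in the mutant-labelled library and 162 in the wild-type-labelled library. The part of myeloid RNA in the mfap4 value was not tested.

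Lower elastic fibre genes included a matrix cross-linking enzyme and an assembly factor, while some relatives of the lower genes were higher. emilin3a had 88 counts in the mutant-labelled library, 957 in the wild-type-labelled library and a ratio of 0.0974 (0.0774 to 0.121). Its relative emilin2a, with 8549 and 4454 counts in the same order, was called higher at 2.03 (1.96 to 2.11). loxl5b, a lysyl oxidase that cross-links matrix, had 115 and 357 counts in the mutant-labelled and wild-type-labelled libraries, a ratio of 0.341 (0.274 to 0.422). lox itself, with 137 and 74 counts in the same order, had 1.96 (1.47 to 2.64) and was not called. Its relative loxl3b, with 3389 and 1978, was called higher at 1.82 (1.72 to 1.92). efemp2b, a fibulin needed for elastic fibre assembly in mammals, had 0.476 (0.410 to 0.550) and its duplicate efemp2a 0.529. In zebrafish emilin3a and loxl5b are also expressed in the notochord. In a notochord list, added after these values were seen, 8 of 13 genes were lower (61.5%) and 1 higher (7.69%). Over all measured genes 6.66% were lower and 6.03% higher. None of the list was at 0, and its summed level was 573 CPM in the mutant-labelled library and 976 in the wild-type-labelled library. The part of notochord RNA in these values was not tested. lox, loxl3b, emilin2a and efemp2a were named after their values were seen.

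Of the second heart field and outflow genes, the list closest to ltbp3, more were called higher than lower. Of 39 measured, 9 were called higher (23.1%) and 3 lower (7.69%), with a median of 0.17. Over all measured genes 6.03% were higher and 6.66% lower, so the share of lower genes was near that of all genes. Under the cardiac scaling 1 gene of the list was higher and 18 lower, where 1.68% and 42.5% of all measured genes were. aldh1a2, which makes retinoic acid, had 14536 and 5996 counts in the mutant-labelled and wild-type-labelled libraries, a ratio of 2.57 (2.49 to 2.65). fgf10b had 2.60 (2.05 to 3.31) on 245 and 100 counts in the mutant-labelled and wild-type-labelled libraries, and mef2cb, a transcription factor gene of the late-adding progenitors, 2.13 (2.02 to 2.26). The other higher genes were foxh1 (2.82), gata4 (2.05), nkx2.7 (2.05), nkx2.5 (1.97), oep (1.74) and fgf8a (1.61), all named after their values were seen. The lower genes were isl2b (0.336), isl1 (0.562) and plxna4 (0.597), all of which are also expressed in neurons. No neuronal list was used, and the part of neuronal RNA in these values was not tested. hapln1a, the most counted, a hyaluronan link protein gene, had 60157 counts in the mutant-labelled library, 47041 in the wild-type-labelled library and a ratio of 1.35. The part of heart muscle RNA in the values of this list was not tested.

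Markers of other tissues that could hold smooth muscle or its precursors differed from one another. Of 8 epicardial markers 5 were called higher (62.5%) and 0 lower, against 6.03% and 6.66% of all measured genes. The list had a median of 1.35 and summed levels of 3067 CPM in the mutant-labelled library and 2170 in the wild-type-labelled library. The higher genes include wt1b and wt1a, transcription factor genes, anxa2a, and aldh1a2, which is also counted among the second heart field genes. tbx18, another transcription factor gene of the list, had 1295 counts in the mutant-labelled library and 1432 in the wild-type-labelled library. Its ratio was 0.958 (0.888 to 1.03), and cxcl12a had 1.07, so neither was called. tbx18 and cxcl12a were named after their values were seen. Most of the summed level was krt8, a keratin gene, with 2336 CPM in the mutant-labelled library, 1856 in the wild-type-labelled library and a ratio of 1.26 that was not called. Vascular endothelial markers had 1 higher and 1 lower of 14, or 7.14% each, with a median of 0.05. Their summed levels were 613 CPM in the mutant-labelled library and 515 in the wild-type-labelled library. The higher gene was cdh5, the most counted of the list, at 1.90 (1.86 to 1.94), and the lower was tek, at 0.559 (0.521 to 0.599). Pharyngeal and foregut markers, from the region whose mesenchyme forms visceral smooth muscle, had 1 higher and 1 lower of 19, or 5.26% each, a median of −0.027 and summed levels of 446 and 417 CPM in the mutant-labelled and wild-type-labelled libraries. The shares in the endothelial and pharyngeal lists are near those of all measured genes. None of these 3 lists had a gene at 0. The tissue that the counts of myh11a, tagln, acta2 and elna came from was not measured.

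**Figure D5:**
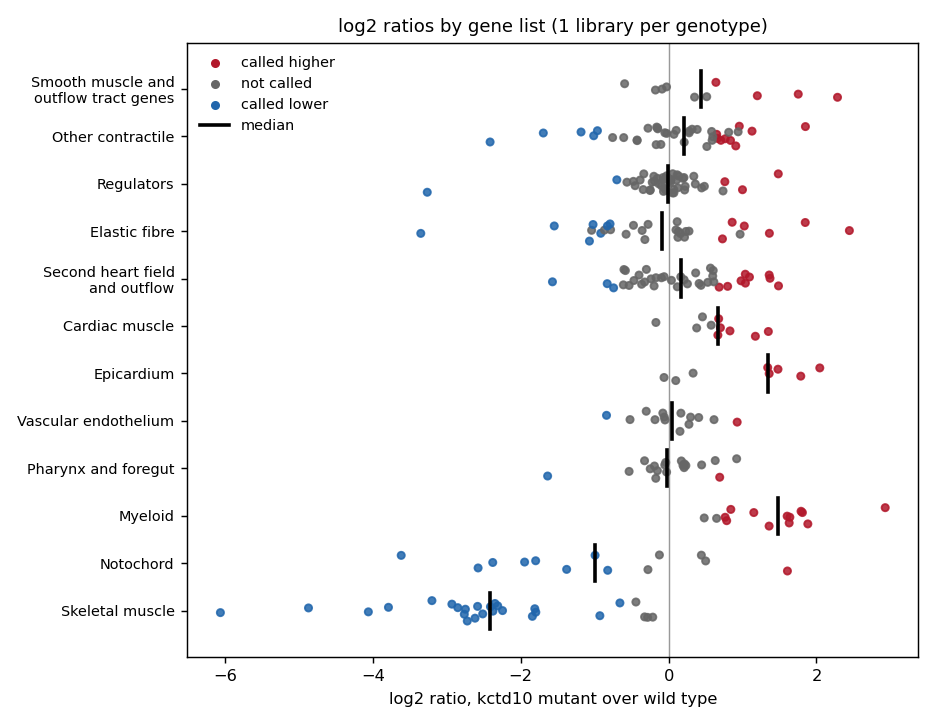
log2 ratio of the mutant-labelled over the wild-type-labelled library for each measured gene (points, coloured by call) of the smooth muscle and outflow tract set and of 11 other lists, with the median of each list (black bar). Cardiac muscle, epicardial and myeloid medians lie at 0.67, 1.35 and 1.48, to the right of the 0.43 of the set, and skeletal muscle lies far to the left at −2.41.

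A second table of the authors gave folds for UniGene clusters, counted apart from the Ensembl genes. Of the 9 symbols, 5 were found in this authors' deposited table. Its folds were 4.48 for myh11a, 3.39 for tagln, 2.35 for elna, 1.59 for acta2 and 0.90 for mylka, in the same order as the ratios from the Ensembl counts. Its fold is headed OE over CON, although a heading line describes a comparison of the mutant with the wild type, and both tables come from the same libraries as far as the labels show, so they are not replicates. The authors' deposited table of Ensembl genes gave folds of 4.86 for myh11a and 0.66 for elnb, at the ends of the set.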

How the data were processed

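For both libraries the authors deposited unnormalized whole-number counts by Ensembl gene. The line that names no gene held 9.17% of counts in the mutant-labelled library and 9.21% in the wild-type-labelled library and was left out. TopHat, DESeq and the build Zv9 are named in the submitters' processing notes. The sources used here do not give versions, the counter, the annotation release or whether strand was used. The authors' deposited comparisons hold, per the file headers, a fold (ratio) with its log2. A further 6 columns of values per library in them match no label and were not used.

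Columns were assigned from their genotype abbreviations. TMM factors from genes with at least 10 counts (edgeR 4.0.16, R 4.3.3) gave effective sizes of 140343348 (mutant-labelled) and 148672835 (wild-type-labelled). Ratios have exact 95% Clopper-Pearson intervals. Quotients of 2 genes have exact conditional intervals, or large-sample ones where every count was above 300. List medians and ranks used 0.5 added to each count. The steps were tested on simulated counts with counting error alone, which cannot show whether the intervals are wide enough for these reads. Alternatives were scaling by library totals, upper quartiles, DESeq2 1.42.0 size factors or cardiac markers, and other limits.

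The members and lists were chosen with earlier results of these data known. Named genes were the members, their paralogues, kctd10 and, per list, up to 3 higher and 3 lower genes and the most counted one; for marker lists of other tissues only some of these are printed, and genes outside the rule are named as such. For lists of 319 symbols, 272 genes were found through the authors' names or a current name table, and the most counted identifier stood for a symbol. No gene was named for a similar pattern, since with 2 libraries a pattern is 1 ratio. No sequence or transcript length was used here, so levels were not ordered between genes.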

Additional observations from a re-analysis of the deposited data

How the results depend on the processing

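No paired analysis was possible because each genotype has 1 library, and no replicate could be left out. With DESeq2 size factors, library totals, upper-quartile factors, 0.5 added to each count and the authors' folds, all 10 log2 ratios of the set stayed within their counting intervals. The authors' folds for the set equal those with DESeq2 size factors, so they are not a separate check. Those 3 scalings shift every log2 ratio by −0.0052, 0.026 and −0.015, in that order, so the small changes follow from their construction. The set kept its counts of 4 higher and 0 lower with those 3 scalings and a 99% interval, and had 3 higher and 0 lower at a 2-fold limit. Dropping the minimum count or raising it to 50 could not change these counts, because the smallest total in the set was 52.

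Scaling to the cardiac markers gave a median log2 ratio of the set of −0.24, against 0.43 with TMM, turned acta2 to −0.032 and gave 2 higher and 2 lower genes in the set. Of 23 paralogues, TMM gave 3 higher and 3 lower, or 13.0% each, against 6.03% and 6.66% of all measured genes. The cardiac scaling left 0 higher and 12 lower of these 23. It left 1 higher and 15 lower of 39 other contractile genes, and 1 and 23 of 46 regulators. It also left 2 and 13 of 30 elastic fibre genes, and 1 and 18 of 39 second heart field genes. These shifts follow from its construction, since it lowers every log2 ratio by the same amount. Over all measured genes it called 1.68% higher and 42.5% lower. A 2-fold limit left 0 higher and 2 lower paralogues, 2 higher and 2 lower other contractile genes, and 1 higher and 1 lower regulator. It left 3 higher and 2 lower elastic fibre genes, and 3 higher and 1 lower second heart field gene. Over all measured genes the 2-fold limit called 2.64% higher and 2.82% lower. Higher second heart field genes numbered 12 with library totals, 8 with DESeq2 size factors or upper quartiles, and 7 with a 99% interval. Over all measured genes 6.4% were higher with library totals, 5.93% with DESeq2 size factors, 5.79% with upper quartiles and 5.16% with a 99% interval. With a 99% interval 3 other contractile genes were lower, where 5.6% of all measured genes were. Counting depth limits cnn1a and elnb, with totals of 52 and 91 counts.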
